A study of Mus musculus with 20 samples.

Results

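The genotype by cell type interaction asks, for each gene, whether the difference between Mural-Zfp423 transgenic and control mice is the same in 2 stromal cell populations of fat. It was computed as the genotype difference in fibro-inflammatory progenitors (FIPs) minus the genotype difference in adipogenic precursor cells (APCs), so a positive value means a higher position of the transgenic label in FIPs than in APCs. All 20 of 20 RNA sequencing libraries entered it, 5 in each of 4 groups. Control FIPs, control APCs, FIPs labelled transgenic and APCs labelled transgenic were all sorted from gonadal white fat of male mice, given as 8 weeks old, kept at 30 °C and fed a diet with 60% of calories from fat for 1 month. FIPs were sorted as CD45-, CD31-, PDGFRb+ and LY6C+ cells, and APCs as CD45-, CD31-, PDGFRb+, LY6C- and CD9- cells. Each library held polyadenylated RNA of 2 pooled mice, so p-values measure the spread between pools, not between single mice. Since there were 10 mice per genotype, FIP and APC libraries of one genotype draw on the same animals; which libraries do so is not stated by the labels. The line is named for Zfp423 in mural cells; its promoter, inducer and alleles are not stated there either.

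APCs are the PDGFRb+ cells of visceral fat that turn into adipocytes. FIPs sit closer to the collagen-rich interstitial progenitors, make matrix and cytokines, and differentiate poorly into fat cells. ZFP423 is a zinc finger transcription factor that marks committed preadipocytes, helps maintain white adipocyte identity, and has been described as a brake on inflammatory signalling in these cells.

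Library depth, read off the step between neighbouring low values, was 6.60 to 8.50 megareads per library, and 15972 to 17282 genes exceeded 1 CPM (reads per megaread). Values are log2 CPM, with 1 CPM or less listed as 0, so a difference that involves values listed at 0 depends on that floor. FIPs and APCs fell on opposite sides of the first principal component (56.7% of the variance). Libraries of a group correlated at 0.98 to 0.99 across genes. Within APCs, 3 libraries did not side with their label. When each library's deviation was correlated across genes with the labelled transgenic minus control difference of the other APC libraries, replicate 1 of the APCs labelled transgenic gave −0.344, against 0.387 to 0.63 in the other 4. Control APC replicate 1 gave 0.194 and replicate 2 gave 0.0134, against −0.592 to −0.413 in the other 3 controls. FIP libraries all sided with their label, but some only weakly. Computed within FIPs, the value was −0.251 to −0.0406 in controls and 0.0288 to 0.286 in libraries labelled transgenic. The values below that moved most without the APC libraries numbered 1 are given both ways. Without control APC replicate 2, 0 genes passed in the interaction in limma (2725 at an unadjusted p under 0.05).

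Zfp423 itself (chromosome 8, 87661810 to 87959595, GRCm38) was looked at first, because it bears on the labels. In FIPs it stood at 5.47, 5.48, 5.47, 5.63 and 5.30 log2 CPM in controls (replicates 1 to 5) and at 5.58, 5.47, 5.53, 5.54 and 5.52 in libraries labelled transgenic. In APCs it stood at 4.96, 4.97, 4.98, 4.72 and 5.21 in controls and at 5.16, 4.73, 4.64, 4.47 and 4.52 in libraries labelled transgenic. The genotypes overlapped in both populations, and the APC value lay on the side opposite to the label. The interaction was 0.32 (SE 0.14, limma adjusted p = 0.333), with a 95% confidence interval of 0.02 to 0.62, and the exact two-sided permutation test gave p = 0.0617 over 63504 arrangements. Without replicate 1 of the APCs labelled transgenic it was 0.44 and passed (limma adjusted p = 0.0455). With the mean of erythroid or of endothelial genes as a covariate it was 0.16 and 0.13 (limma adjusted p = 0.893 and 0.914). The labels do not say whether transgene reads are counted under this gene. For this reason the text writes "labelled transgenic", and each direction between genotypes depends on the labels.

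The sorting genes placed the libraries in their labelled populations. Ly6c1 and Ly6c2, which encode the LY6C antigens, and Cd9, the tetraspanin used to exclude cells from the APC gate, did not overlap between FIPs and APCs in either genotype; 31.4% of all genes did not overlap in controls and 29% in the libraries labelled transgenic. Pdgfrb, the receptor of the common gate, had an interaction of −0.04 (interval −0.22 to 0.15). Genes of the excluded cells were still measured. Pecam1, which encodes CD31, lay between 5.74 and 6.79 log2 CPM, and Ptprc, which encodes CD45, between 3.0 and 5.12.

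No gene passed in the interaction in the main fit, which used no pairing of pools. In limma, 0 of 17435 genes tested (0%) had a Benjamini-Hochberg adjusted p under 0.05, and the smallest adjusted p was 0.0669. Other settings on all 20 libraries called 0 to 176 genes. Fits that treat same-numbered pools of a genotype as related called 25 (block of number within genotype) and 36 (pools as a random effect). FIP and APC libraries share mice, so the count of 0 holds for a fit without pairing. At an unadjusted p under 0.05 there were 2388 genes (13.7%), of which 1863 (10.7%) were positive and 525 (3.01%) negative. The split of directions depended on how libraries were scaled. Positive genes made up 78% of those at an unadjusted p under 0.05 on the deposited scale, 39.8% after centring libraries on their medians, 47.3% after quantile normalization and 53.1% after a trimmed mean of M-values shift. The median interaction over all genes moved from 0.05 to −0.035, −0.02 and −0.0007 with these scalings, so directions of small interactions are not fixed by these data.

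The confidence intervals give the sizes of interaction that the main fit could have missed. They are not adjusted for the number of genes and hold for the deposited scale without pairing. A change of scaling, of covariate or of the libraries kept is not covered by them. The 95% interval lay wholly between −1 and 1 for 14902 genes (85.5%) and between −0.5 and 0.5 for 9697 (55.6%). Its median half-width was 0.16 for the 7185 genes with a mean of at least 5 log2 CPM and 0.59 for the 4533 genes with a mean under 2.

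The component comparisons differed in how many genes they called. Between genotypes in FIPs, 65 genes passed (0.373%), 42 higher (0.241%) and 23 lower (0.132%) in libraries labelled transgenic. Between genotypes in APCs, 1396 genes passed (8.01%), 366 higher (2.1%) and 1030 lower (5.91%). Of the genes called in both, 9 went the same way and 0 the opposite way. APC pools varied more than FIP pools (median SD 0.151 and 0.144 in the APC groups, 0.117 and 0.122 in the FIP groups), and the fit shares 1 spread over all 20 libraries. With only the 10 APC libraries in the limma fit, the count was 0, with 3602 genes at an unadjusted p under 0.05. With the other populations kept in the fit, the APC count was 2849 without replicate 1 of the APCs labelled transgenic and 181 without control APC replicate 5. The FIP count was 125 when replicate 5 of the transgenic label was left out and 9 when replicate 4 was. A call in 1 population and not in the other is not a difference between them. The interaction, which tests that difference, called none of these genes in the fit without pairing.

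**Figure D1:**
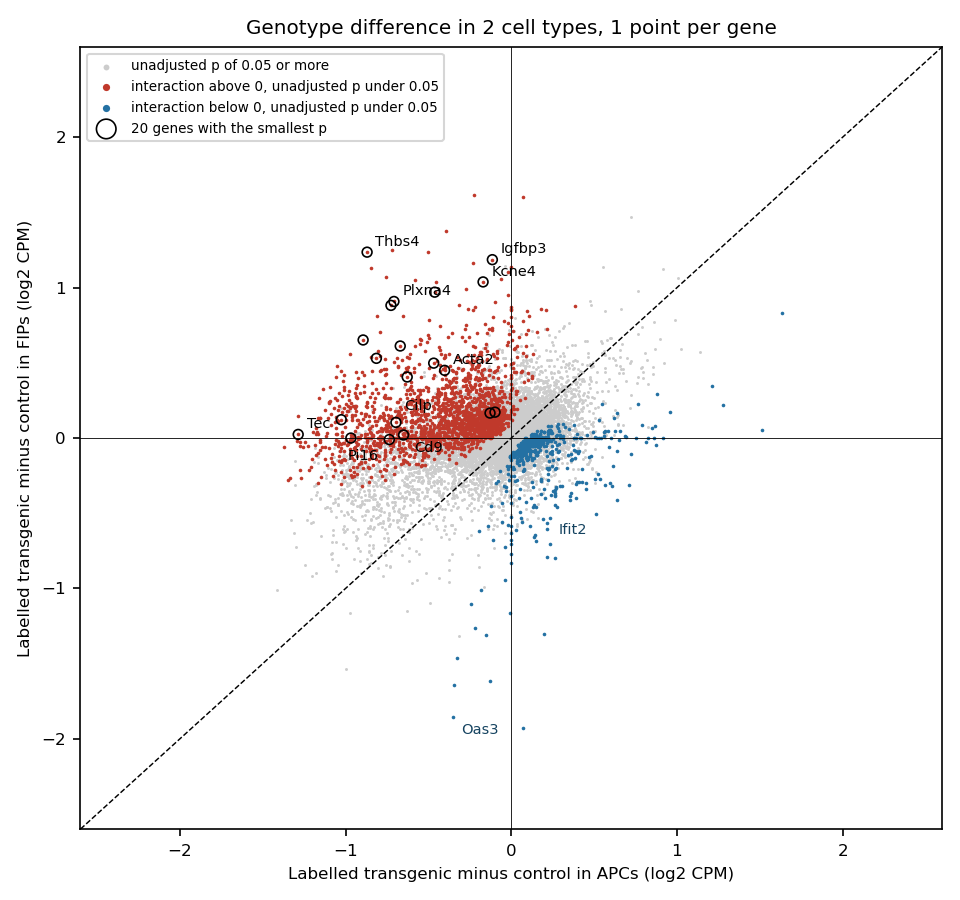
Difference between labelled transgenic and control mice in APCs (horizontal axis) and in FIPs (vertical axis), in log2 CPM, with 1 point per gene tested and the dashed line at equal differences. Of the genes at an unadjusted p under 0.05, 1434 lie in the upper left, with a higher mean of the transgenic label in FIPs and a lower mean in APCs, and all 20 ringed genes lie above the dashed line.

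Genotype differences were of opposite sign in FIPs and APCs for 76% of the genes at an unadjusted p under 0.05 and for 42.6% of all genes tested. A large interaction favours opposed signs by its construction, and the balance of directions below is that of the deposited scale. The mean of the libraries labelled transgenic was higher in FIPs and lower in APCs for 1434 genes, and the reverse held for 382. It was lower in both populations for 340 genes with a positive and 34 with a negative interaction, and higher in both for 46 and 81. The APC difference was the larger of the pair for 72.9% of these genes, against 61.7% of all genes tested. Across all 17435 genes the FIP and APC differences correlated at r = 0.276 (Spearman 0.213), as a description across genes, which are not independent replicates; the pools behind them share mice.

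With fewer than 10 genes called, the 20 with the smallest p are described, leaving out 1 predicted gene. They were chosen by that p, so their values are a description. All 20 interactions were positive, from 0.27 to 2.11, with adjusted p from 0.0669 to 0.0847, and the sign of each was positive in each of the 3 other scalings. In all 20 the mean of the APCs labelled transgenic lay below that of control APCs. In FIPs the mean of the transgenic label was higher for 18 genes, lower for 1 and equal for 1. By component, 3 genes were called between genotypes in FIPs (0.373% of all genes), 14 in APCs (8.01% of all genes) and 3 in neither. The interaction that chose them is built from these comparisons, so nothing is read from the counts. Genotypes did not overlap in FIPs for 10 of the 20 (2.89% of all genes) and in APCs for 7 (2.92% of all genes).

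Igfbp3, Kcne4 and Rph3al rose in FIPs of the transgenic label. Igfbp3 (chromosome 11, 7206086 to 7213923) encodes a secreted carrier that holds insulin-like growth factors outside the cell. In FIPs it stood at 5.96, 6.19, 5.73, 6.09 and 6.11 log2 CPM in controls and at 7.03, 6.92, 6.88, 7.43 and 7.75 in libraries labelled transgenic. In APCs it stood at 5.22, 4.86, 4.86, 4.57 and 4.86 in controls and at 5.03, 4.86, 4.49, 4.67 and 4.75 in libraries labelled transgenic. Every FIP library of the transgenic label was above every control, while the APC genotypes overlapped. The FIP difference was 1.19 (2.28-fold, limma adjusted p = 0.000797) and the APC difference −0.11 (limma adjusted p = 0.687). The interaction was 1.30 (SE 0.21, interval 0.87 to 1.73), the smallest p of all genes (3.92e-06, limma adjusted p = 0.0669).

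Kcne4 (chromosome 1, 78816758 to 78820028), a regulatory subunit of voltage-gated potassium channels, had nearly the same level in all control libraries. It stood at 4.02, 4.16, 4.02, 3.84 and 3.89 log2 CPM in control FIPs and at 4.92, 4.56, 4.79, 5.29 and 5.56 in FIPs labelled transgenic. In APCs it ranged from 3.87 to 4.19 in controls and from 3.56 to 4.22 in libraries labelled transgenic. The FIPs of the transgenic label stood apart from every other library. The FIP difference was 1.04 (2.05-fold, limma adjusted p = 0.00487), the APC difference −0.17, and the interaction 1.21 (SE 0.22). Rph3al, a Rab effector of regulated secretion, was near the floor, at 0 to 0.42 log2 CPM in control FIPs, against 0.61 to 1.6 in the FIPs of the transgenic label, with a FIP difference of 0.97 (limma adjusted p = 0.0367) and an interaction of 1.43 (SE 0.29).

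A further set differed more in APCs than in FIPs. Cd9 (chromosome 6, 125460266 to 125494791), the tetraspanin of the APC gate, stood at 4.83, 5.13, 5.11, 4.96 and 5.15 log2 CPM in control APCs and at 4.36, 4.12, 4.36, 4.28 and 4.81 in APCs labelled transgenic. In FIPs it stood between 6.51 and 6.62 in controls and between 6.55 and 6.67 in libraries labelled transgenic. All APCs of the transgenic label were below all control APCs, and the FIP genotypes were level with each other. Cd9 fell by 0.65 in APCs (1.57-fold lower, limma adjusted p = 0.00163), differed by 0.02 in FIPs, and had an interaction of 0.67 (SE 0.12). Ly6c1 and Ly6c2, the other gate genes, fell by 0.53 each in APCs with no overlap (limma adjusted p = 0.00161 and 0.00231), and had interactions of 0.43 (SE 0.10) and 0.41 (SE 0.11). Because LY6C and CD9 set the APC gate, these genes describe the sorted cells and the gate together, which cannot be told apart here.

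Pi16 (chromosome 17, 29317680 to 29330593), a peptidase inhibitor that marks interstitial progenitors, stood at 5.45, 5.69, 5.79, 6.03 and 6.11 log2 CPM in control APCs. It stood at 5.39, 4.70, 5.18, 5.04 and 5.08 in APCs labelled transgenic, so that every library was below every control, replicate 1 by the least. In FIPs all 10 libraries lay between 8.08 and 8.22. Pi16 fell by 0.74 in APCs (limma adjusted p = 0.00196), and its interaction was 0.73 (SE 0.15). The distance between FIPs and APCs was 2.34 in controls and 3.07 in mice of the transgenic label.

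Cilp (chromosome 9, 65265180 to 65280605), a matrix protein that binds growth factors, showed the same arrangement. Control APCs stood at 6.96, 6.89, 6.97, 6.47 and 6.90 log2 CPM and APCs labelled transgenic at 6.08, 5.74, 6.30, 6.05 and 6.54. Control replicate 4 was below replicate 5 of the transgenic label, which was the only overlap. In FIPs it was 9.09 ± 0.06 (SD, n = 5) in controls and 9.19 ± 0.03 (SD, n = 5) in libraries labelled transgenic, which did not overlap. Cilp fell by 0.70 in APCs (limma adjusted p = 0.00231), and the interaction was 0.80 (SE 0.15).

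Tec, a cytoplasmic tyrosine kinase best known from blood cells, stood at 1.32, 1.95, 2.21, 1.98 and 2.28 log2 CPM in control APCs and at 0.76, 0.50, 0.92, 0.39 and 0.74 in APCs labelled transgenic. The APC groups did not overlap, and the FIP values of 0.83 to 1.5 and 0.61 to 1.39 did. Its APC difference was −1.29 (limma adjusted p = 0.00196) and its interaction 1.31 (SE 0.26). Nlrp1b, an inflammasome sensor, and Dclk3, a kinase of the doublecortin-like family, were also lower in APCs labelled transgenic without overlap. Dclk3 was listed at 0 in all 10 FIP libraries and in 4 of the 5 APCs labelled transgenic, so its interaction of 0.97 is the APC difference alone and is bounded by the floor. Ppcs, an enzyme of coenzyme A synthesis, had an APC difference of −0.63 (limma adjusted p = 0.0245) and a FIP difference of 0.41 (limma adjusted p = 0.307). Its interaction was 1.03 (SE 0.21). Cxadr, a cell adhesion receptor of epithelia, had an APC difference of −0.81, a FIP difference of 0.53 (limma adjusted p = 0.275) and an interaction of 1.34 (SE 0.27). Replicate 1 of the APCs labelled transgenic was at 2.86 and the other 4 between 2.10 and 2.21.

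The remaining genes had differences of opposite sign in the 2 populations. That held for 18 of the 20 genes, so it does not set these apart. Thbs4 (chromosome 13, 92751590 to 92794818), a thrombospondin of matrix and tendon, had an interaction of 2.11 (SE 0.40, interval 1.27 to 2.95), the largest of the 20. In FIPs it stood at 3.54, 4.08, 4.43, 4.89 and 3.62 log2 CPM in controls and at 5.73, 5.36, 5.23, 4.72 and 5.70 in libraries labelled transgenic. In APCs it stood at 0.66, 0.85, 1.25, 1.93 and 1.71 in controls and at 0.86, 0, 0.33, 0 and 0.86 in libraries labelled transgenic. The genotypes overlapped in each population, through control replicate 4 and labelled replicate 4 in FIPs. Neither component passed (FIP 1.24, limma adjusted p = 0.0592; APC −0.87, limma adjusted p = 0.0618). FIPs stood above APCs by 2.83 in controls and by 4.94 in mice of the transgenic label, the second value resting on APC libraries at or near 0.

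Plxna4 (chromosome 6, 32144268 to 32588192), a receptor for semaphorin guidance cues, had nearly equal levels in the populations of control mice. It stood at 3.33, 3.63, 3.24, 3.83 and 3.24 log2 CPM in control FIPs and at 4.20, 4.37, 3.95, 4.26 and 5.03 in FIPs labelled transgenic. Control APCs stood at 3.14, 3.47, 4.08, 3.49 and 3.91 and APCs labelled transgenic at 3.43, 2.62, 2.89, 3.12 and 2.49. FIPs did not overlap between genotypes, and the APCs overlapped through both libraries numbered 1. The interaction was 1.62 (SE 0.30), from a FIP difference of 0.91 and an APC difference of −0.71 (limma adjusted p = 0.0592 and 0.0446), and the distance between populations went from −0.16 to 1.45.

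Mfap4, a microfibril-associated protein, was highest in FIPs of the transgenic label. It stood at 6.63, 6.74, 6.82, 6.76 and 6.69 log2 CPM in control FIPs and at 7.26, 7.16, 7.14, 7.2 and 7.37 in FIPs labelled transgenic, with no overlap. In APCs it was 4.76 ± 0.29 in controls and 4.29 ± 0.37 in libraries labelled transgenic (SD, n = 5 each), which overlapped. The interaction was 0.97 (SE 0.19), with a FIP difference of 0.50 (limma adjusted p = 0.13) and an APC difference of −0.47 (limma adjusted p = 0.0432). Acta2 (chromosome 19, 34241090 to 34255590), the smooth muscle actin of mural cells and myofibroblasts, stood at 5.49, 5.58, 5.51, 5.29 and 5.76 in control FIPs and at 5.93, 5.90, 5.91, 5.88 and 6.26 in FIPs labelled transgenic. Its APC values were 5.76 to 6.62 in controls and 5.64 to 6.04 in libraries labelled transgenic. Only the FIP genotypes were free of overlap, and the interaction was 0.85 (SE 0.18) with neither component called (limma adjusted p = 0.138 in FIPs and 0.0523 in APCs).

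Fgf9, a fibroblast growth factor, was listed at 0 in 4 of the 5 APCs labelled transgenic and at 0.21 in replicate 2, against 0.07 to 1.4 in control APCs. In FIPs it ranged from 0.56 to 1.22 in controls and from 1.19 to 2.04 in libraries labelled transgenic, and the interaction was 1.55 (SE 0.29). Wfikkn2, a secreted antagonist of myostatin-type ligands, was listed at 0 in all 5 APCs labelled transgenic and at 0.35 to 1.00 in control APCs, with an interaction of 1.28 (SE 0.26). Jsrp1, a junctional protein of the sarcoplasmic reticulum, had an interaction of 1.61 (SE 0.30) and lay under 2.2 log2 CPM in all libraries. For Fgf9 and Wfikkn2 the floor at 1 CPM bounds the size of the APC difference. Wfikkn2 and Jsrp1 were each listed at 0 in 2 control FIP libraries, so their FIP differences also depend on it. Jsrp1 was listed at 0 in no APC library. Well-measured genes also appeared with small interactions. Oxct1, the mitochondrial enzyme that uses ketone bodies, was 7.34 ± 0.06 in control FIPs and 7.51 ± 0.02 in FIPs labelled transgenic, and 7.33 ± 0.06 and 7.21 ± 0.08 in the APC groups (SD, n = 5 each). Its interaction was 0.29 (SE 0.06). Slc25a32, the mitochondrial folate and FAD carrier, had an interaction of 0.27 (SE 0.06).

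**Figure D2:**
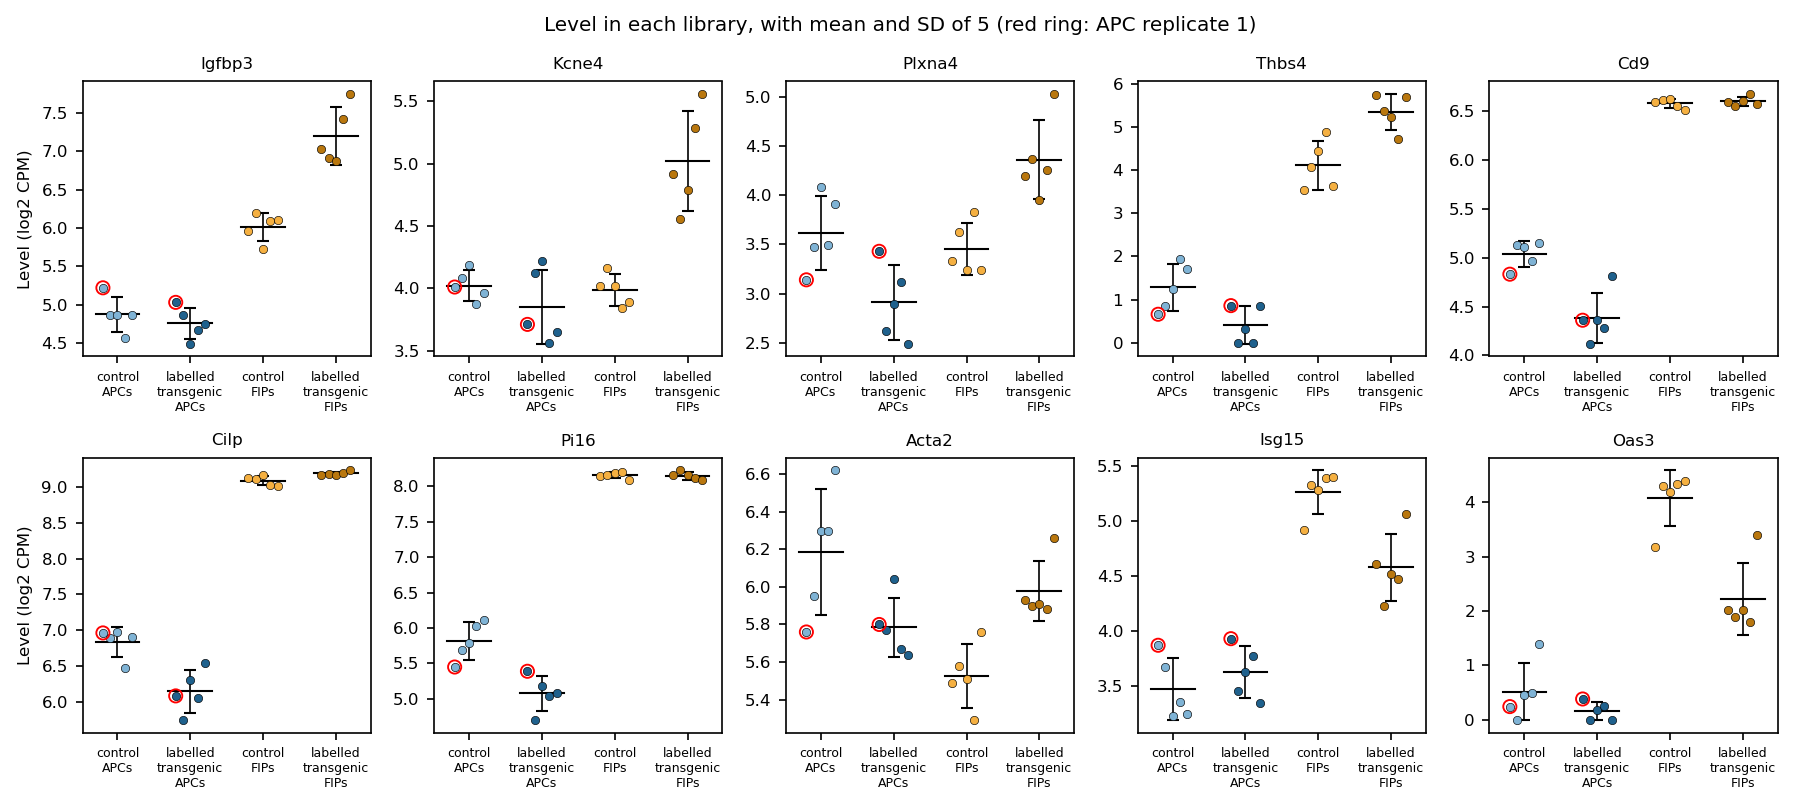
Level of 10 genes in each library (log2 CPM), by group, with the mean and SD of 5 libraries and red rings around the APC libraries numbered 1. Igfbp3 and Kcne4 separate in FIPs, Cd9 and Pi16 in APCs, and Isg15 and Oas3 are lower in 4 of 5 FIPs labelled transgenic, with replicate 5 apart.

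Seen as the distance between populations, 8 of the 20 genes were already higher in control FIPs than in control APCs and stood further apart in mice of the transgenic label. For 10 genes the mean was lower in control FIPs than in control APCs and higher in FIPs than in APCs of the transgenic label. For the other 2, Dclk3 and Slc25a32, FIPs stayed below APCs, with distances of −1.04 and −0.08 for Dclk3 and of −0.30 and −0.03 for Slc25a32. These are the same interactions read along the other axis, not further evidence.

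The count of genes called in the interaction depended on single libraries. It was 331 (1.9%) without replicate 1 of the APCs labelled transgenic, 288 positive (1.65%) and 43 negative (0.247%). It was 70 (0.401%) without control APC replicate 1, 68 positive (0.39%) and 2 negative (0.0115%). Without replicate 5 of the FIPs labelled transgenic it was 32 (0.184%), 13 positive (0.0746%) and 19 negative (0.109%). For each of the other 17 libraries it was 0 to 3. Without both APC libraries numbered 1, an alternative chosen after the data were seen, 957 genes passed (5.49%), 857 positive (4.92%) and 100 negative (0.574%). All 20 genes described above were among them, with interactions of 0.29 to 2.37. These 2 libraries were picked because they sided least with their labels, so the larger count carries that choice in it. Of the 20, 20 passed without replicate 1 of the APCs labelled transgenic, 19 without control APC replicate 1 and 11 without replicate 5 of the FIPs labelled transgenic.

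**Figure D3:**
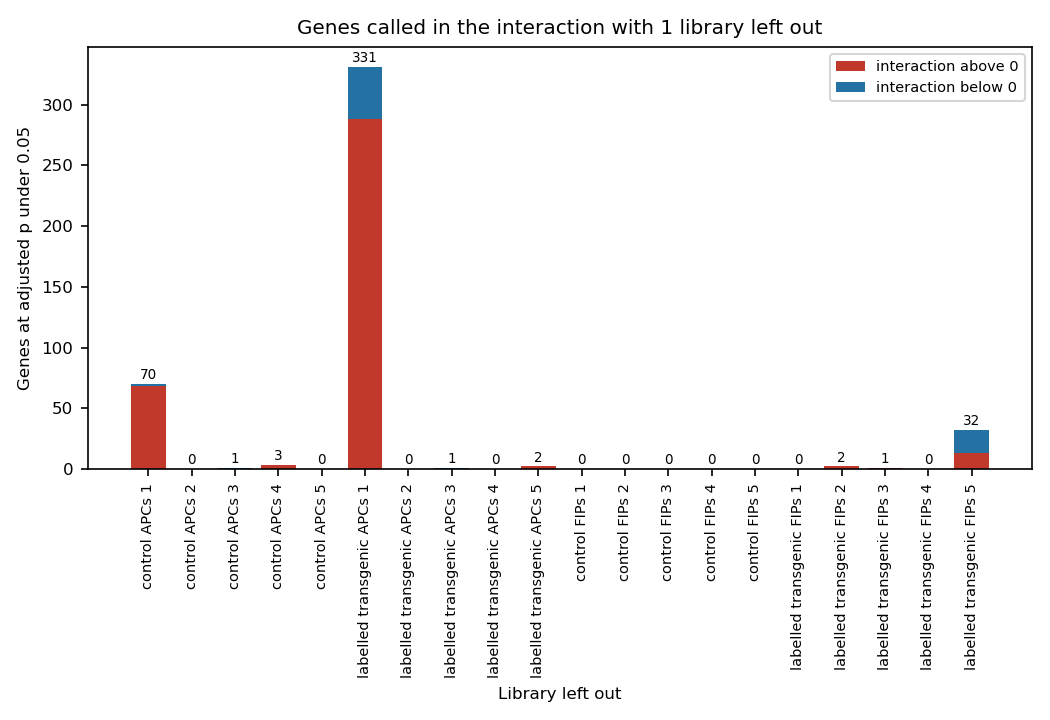
Number of genes at an adjusted p under 0.05 in the interaction (vertical axis) when the library named on the horizontal axis is left out, positive interactions in red and negative in blue. The count is 331, 70 and 32 without 3 of the libraries and at most 3 without any of the others.

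Transcripts of cells outside the gates are given before the gene groups, since some of these lists moved with the interaction. The erythroid list (8 tested of 10 listed) had 6 positive members at an unadjusted p under 0.05 (75%, against 10.7% of all genes). It had no negative one, and all 8 fell in APCs labelled transgenic (5.91% of all genes fell there). Its median interaction was 0.71, and 1.05 without both APC libraries numbered 1, where 7 of the 8 passed (4.92% of all genes were positive there). Its mean level was 5.19, 5.39, 5.74, 6.04 and 5.97 log2 CPM in control APCs and 5.53, 4.48, 4.79, 4.64 and 4.33 in APCs labelled transgenic. In FIPs it lay between 4.54 and 4.63 in controls and between 4.0 and 4.70 in libraries labelled transgenic. Replicate 1 of the APCs labelled transgenic thus sat among the controls. Summed over the list, APCs held 831 to 1581 CPM with the control label and 469 to 1071 with the transgenic label, and FIPs held 481 to 549 and 332 to 591. Haemoglobin genes are near-identical copies, so their single values are uncertain.

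Macrophage genes fell in APCs for 17 of 27 members (5.91% of all genes). Their medians were −0.51 in FIPs, where none was called, and −0.78 in APCs. In the interaction 1 of the 27 was positive at an unadjusted p under 0.05 (3.7%, against 10.7% of all genes). That was Cd9, a gate gene, so nothing is read from this count. The APC sums were 523 to 866 CPM for controls and 347 to 534 for the transgenic label, the FIP sums 491 to 814 and 361 to 602, and none of the 27 was at 0 throughout a group. Mesothelial genes had a median interaction of 0.32, which was 0.63 without both APC libraries numbered 1. It was 0.53 when APC replicate 1 of the transgenic label was left out and 0.52 when FIP replicate 5 of that label was. They had sums of 976 to 1063, 891 to 991, 928 to 1070 and 956 to 1018 CPM in the same order. Of the neutrophil and mast cell genes, the granule and receptor genes S100a8, S100a9, Ly6g, Retnlg and Cxcr2 were at 0 in all libraries. Kit and the mast cell proteases Cpa3 and Mcpt4 fell in APCs, 3 of 7 tested (5.91% of all genes). In bulk samples fewer cells of a type and less RNA per cell cannot be told apart. With the erythroid mean as a covariate, 2 genes passed in the interaction and 1159 had an unadjusted p under 0.05; with the endothelial mean the counts were 1 and 1193, and with the macrophage mean 1 and 1976. Beyond these fits, the part of such transcripts in the results below was not tested.

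**Figure D4:**
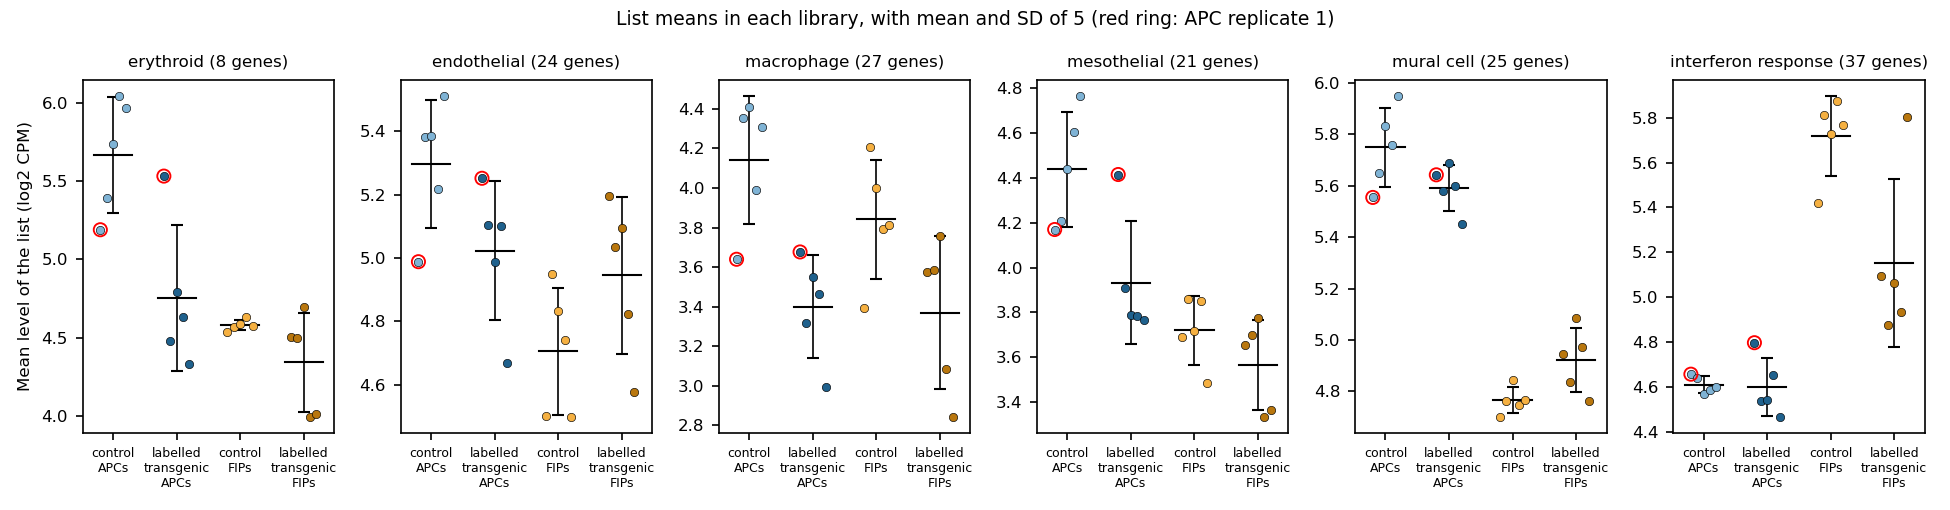
Mean level of 6 gene lists in each library (log2 CPM), by group, with the mean and SD of 5 libraries and red rings around the APC libraries numbered 1. Erythroid and mesothelial means are lower in 4 of 5 APCs labelled transgenic, with replicate 1 among the controls, and the interferon mean is lower in 4 of 5 FIPs labelled transgenic, with replicate 5 at 5.80.

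Interferon-induced genes were the group with the lowest median interaction, −0.43 over 37 members tested, against 0.05 over all genes. At an unadjusted p under 0.05, 24 members (64.9%) were negative and 1 positive, against 3.01% and 10.7% of all genes. The median was −0.42 in FIPs and 0.01 in APCs, and the median interaction stayed between −0.55 and −0.48 under the 3 other scalings. These are effectors that cells switch on when interferon activates STAT and IRF factors at their promoters. In FIPs labelled transgenic 8 members fell, namely Ifi44, Rsad2, Ifit3, Ifit3b, Igtp, Mx1, Oas3 and Ifih1, and in APCs 1 rose, Irf9, against 0.132% of all genes lower in FIPs and 2.1% higher in APCs. None passed in the interaction, and the members share an upstream signal, so their counts are not independent.

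The promoters of this group were searched for the interferon-stimulated response element. It was taken as GAAANNGAAA on both strands in the 250 bases upstream of the RefSeq start (GRCm38.p6). Of the 28 tested members with an entry, 15 (53.6%) held it, against 389 of 11680 tested genes (3.33%). The members were listed as interferon-induced genes, so a larger share is built into the list and does not bear on the interaction. Of the 20 genes with the smallest p, 14 had an entry and 1 held it. Stretches from Isg15 and Oas3 are shown because, of the members described below with their values, these held a match. Ifit2 held none and Dhx58 had no entry. Both stretches are on the minus strand and are written 5′ to 3′ along the gene. Matches are in capitals and overlap each other in Isg15. A match is a description of letters, not of binding.
Isg15, chr4:156200845-156200926: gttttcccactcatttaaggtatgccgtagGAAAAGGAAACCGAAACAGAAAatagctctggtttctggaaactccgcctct
Oas3, chr5:120777695-120777764: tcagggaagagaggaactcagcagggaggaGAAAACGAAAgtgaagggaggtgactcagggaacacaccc

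Oas3 makes the 2′-5′ oligoadenylates that activate RNase L. It stood at 3.18, 4.29, 4.19, 4.34 and 4.38 log2 CPM in control FIPs and at 2.02, 1.88, 2.02, 1.79 and 3.4 in FIPs labelled transgenic. In APCs it lay between 0 and 1.39 in controls and between 0 and 0.38 in libraries labelled transgenic. The groups overlapped in FIPs only through control replicate 1 and labelled replicate 5. Oas3 fell by 1.85 in FIPs (3.61-fold lower, limma adjusted p = 0.00759), and its interaction was −1.5 (SE 0.41, limma adjusted p = 0.163). The distance from FIPs to APCs was 3.56 in controls and 2.06 in mice of the transgenic label.

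Isg15, a ubiquitin-like modifier, stood at 4.92, 5.33, 5.28, 5.39 and 5.4 log2 CPM in control FIPs and at 4.61, 4.23, 4.52, 4.47 and 5.07 in FIPs labelled transgenic. The same 2 libraries, control 1 and labelled 5, made the overlap. Its FIP difference was −0.68 (limma adjusted p = 0.0542), its APC difference 0.15, and its interaction −0.84 (SE 0.22). Ifit2, a tetratricopeptide protein that inhibits translation of viral RNA, was at 6.12 in control FIP replicate 1 and 6.59 to 6.78 in the others, and at 6.69 in labelled replicate 5 and 5.82 to 6.0 in the others. It had an interaction of −0.77 (SE 0.19), the smallest p of the list, and its promoter entry held no match. Dhx58, a regulator of RNA sensors that has no entry in the promoter table, had an interaction of −0.70 (SE 0.19).

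The interaction calls in this group depended on which libraries were kept, among them replicate 5 of the FIPs labelled transgenic. The mean level of the list was 5.42, 5.81, 5.73, 5.88 and 5.77 log2 CPM in control FIPs, and 5.10, 4.87, 5.06, 4.93 and 5.80 in FIPs labelled transgenic. All APC libraries lay between 4.47 and 4.8. Without replicate 5 the median interaction was −0.57, and 10 of the 37 members passed, all negative, against 19 negative genes among all tested (0.109%). They were Rsad2, Dhx58, Ifit3, Ifit3b, Ddx58, Mx1, Oas3, Oasl2, Ifit2 and Parp14. Without both APC libraries numbered 1, 4 members passed, against 100 negative genes in all (0.574%). The 10 members without replicate 5 are 27% of the list and 52.6% of the negative calls. Replicate 5 is the library set apart on this same list mean. Leaving it out therefore makes these interactions more negative by construction, and the counts are a description. Control FIP replicate 1, the lowest control on the list mean, was kept in that fit. Leaving out that control instead, 0 genes passed. With the erythroid, macrophage or endothelial mean as a covariate, the median interaction of the list was −0.41, −0.41 and −0.39.

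Genes of inflammation other than interferon had medians closer to that of all genes (0.05). NF-kB and toll-like receptor components had a median interaction of −0.01. At an unadjusted p under 0.05, 2 of 36 were positive (5.56%, against 10.7% of all genes) and 3 negative (8.33%, against 3.01%). Cytokines and chemokines had a median of −0.03, with 4 of 30 positive (13.3%) and 2 negative (6.67%). Both lists held larger shares of negative members than all genes. Ikbkb, the kinase that releases NF-kB, stood at 6.83, 6.95, 6.70, 6.89 and 6.88 log2 CPM in control FIPs and at 6.54, 6.58, 6.51, 6.63 and 6.73 in FIPs labelled transgenic. Control replicate 3 was below labelled replicate 5. Ikbkb fell by 0.25 in FIPs (limma adjusted p = 0.0277), differed by 0.02 in APCs, and had an interaction of −0.27 (SE 0.07, limma adjusted p = 0.14). Nfkb1, Nfkb2, Relb, Myd88 and Birc3, 5 of the 36, rose in APCs labelled transgenic (2.1% of all genes) and Tlr7 fell, without an interaction that passed. Il33, an alarmin of stromal progenitors, fell by 0.73 in APCs (limma adjusted p = 0.0189), differed by 0.08 in FIPs, and had an interaction of 0.81 (SE 0.23).

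Vascular genes lay on the positive side. Of 24 endothelial genes, 14 were positive (58.3%, against 10.7% of all genes) and 1 negative (4.17%, against 3.01%) at an unadjusted p under 0.05. Their median was 0.57 (0.30 in FIPs and −0.23 in APCs), and 0.47 to 0.52 under the other scalings. Flt1 and Kdr, receptors for VEGF, had interactions of 0.58 (SE 0.15) and 0.72 (SE 0.19), Cdh5, the cadherin of endothelial junctions, 0.56 (SE 0.15), and Ptprb, the endothelial phosphatase that acts on TIE2, 0.69 (SE 0.17). Pecam1 stood at 5.76, 6.28, 6.11, 5.99 and 5.74 log2 CPM in control FIPs and at 6.65, 6.43, 6.42, 6.37 and 5.98 in FIPs labelled transgenic, which overlapped. Its interaction was 0.66 (SE 0.19). CD31-positive cells were gated out of both sorts, and the summed endothelial level of APCs was 1240 to 1607 CPM for controls and 1117 to 1453 for the transgenic label. In FIPs the sums were 1023 to 1309 and 1143 to 1477. None of the 24 was at 0 throughout a group. With the erythroid mean as a covariate the median interaction of the list was 0.33. Without both APC libraries numbered 1, 12 of the 24 passed, all positive (4.92% of all genes).

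Mural cell genes, the group the transgene is named for, had a median of 0.16 (0.11 in FIPs and −0.08 in APCs), with 8 of 25 positive (32%, against 10.7% of all genes) and 0 negative at an unadjusted p under 0.05. Beside Acta2 these included Rgs5, a pericyte regulator of G protein signals (0.70, SE 0.17), Abcc9, a subunit of the vascular potassium channel (0.65, SE 0.16), and Gucy1a1, a subunit of the nitric oxide receptor (1.23, SE 0.28). Gucy1a1 stood at 4.14, 4.12, 5.10, 4.45 and 4.77 log2 CPM in control APCs and at 3.99, 3.93, 3.86, 3.91 and 3.06 in APCs labelled transgenic, with no overlap. It fell by 0.77 in APCs (limma adjusted p = 0.0285) and differed by 0.46 in FIPs (limma adjusted p = 0.395). Gucy1a1 and Myh11 were the mural genes called in APCs, and none was called in FIPs. Their mean level moved with that of the endothelial list, lower in APCs and higher in FIPs of the transgenic label. Angpt2, a ligand of the TIE2 receptor, rose by 0.76 in FIPs without overlap (limma adjusted p = 0.0331) and had an interaction of 0.91 (SE 0.21).

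Progenitor markers and adipocyte genes both had members that fell in APCs. Of 25 interstitial progenitor markers, 10 fell and 1 rose in APCs labelled transgenic (5.91% and 2.1% of all genes), and none was called in FIPs (0.373% of all genes). In the interaction 8 were positive (32%, against 10.7%) and 2 negative (8%, against 3.01%) at an unadjusted p under 0.05, and the median was −0.006, which was −0.09 to −0.001 in the other scalings and 0.01 without both APC libraries numbered 1. Pi16, Il33 and Ly6c1 had positive interactions, while Mfap5, a microfibril protein, had a negative one (−0.17, SE 0.05), standing at 8.42 to 8.51 log2 CPM in control FIPs, against 8.28 to 8.40 in the FIPs of the transgenic label. Committed preadipocyte markers had a median of −0.02, with 4 of 23 positive at an unadjusted p under 0.05 (17.4%, against 10.7% of all genes). The chemokine Cxcl12 had the smallest p among them, with an interaction of 0.18 (SE 0.06).

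All 32 adipocyte lipid genes had positive interactions on the deposited scale, as had 10777 of the 17435 genes tested. At an unadjusted p under 0.05 there were 8 (25%, against 10.7% of all genes). The median was 0.34, and 0.25 to 0.33 in the other scalings. Without both APC libraries numbered 1 the median was 0.55 and 8 of the 32 passed (4.92% of all genes). In APCs labelled transgenic 23 fell (5.91% of all genes), among them Adipoq, Fasn, Scd1 and Srebf1. In FIPs, where 0.373% of all genes were called, none of them was (median −0.16). Scd2, a fatty acid desaturase of preadipocytes, stood at 8.28, 8.27, 8.30, 8.34 and 8.66 log2 CPM in control APCs and at 8.26, 7.71, 7.75, 7.80 and 7.53 in APCs labelled transgenic. Replicate 1 of the transgenic label was close to the controls and the other 4 lay below them. Scd2 fell by 0.56 in APCs (limma adjusted p = 0.00898), differed by 0.08 in FIPs, and had an interaction of 0.64 (SE 0.15). The list mean put replicate 1 of the transgenic label among the controls, as the erythroid mean did, at 7.21, 7.25, 7.51, 7.55 and 7.87 in controls and 7.48, 6.76, 6.89, 6.89 and 6.66 in libraries labelled transgenic. With the erythroid mean as a covariate the median interaction was −0.12 and with the endothelial mean −0.08, so the sign of the median did not hold in those fits.

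Nuclear-encoded subunits of the respiratory chain shared a direction at small size. All 81 had a positive interaction on the deposited scale, as had 10777 of the 17435 genes tested. At an unadjusted p under 0.05 there were 24 (29.6%, against 10.7% of all genes). The median was 0.18, and 0.09 to 0.13 in the other scalings. Without both APC libraries numbered 1 it was 0.25, and 3 of 81 passed (4.92% of all genes). The FIP median was 0.02 and the APC median −0.17, with 6 of 81 called lower in APCs (5.91% of all genes). Both counts of calls lie near those shares, so nothing is read from them. Uqcrfs1, the Rieske iron-sulphur subunit of complex III, stood at 5.90, 5.87, 6.08, 6.14 and 6.36 log2 CPM in control APCs and at 6.06, 5.63, 5.73, 5.66 and 5.59 in APCs labelled transgenic. It was 5.77 ± 0.05 and 5.77 ± 0.10 in the FIP groups (SD, n = 5 each). Replicate 1 of the transgenic label again lay within the controls, and the interaction was 0.34 (SE 0.12). With the erythroid mean as a covariate the median of the list was 0.01. Glycolytic genes had a median of 0.13. At an unadjusted p under 0.05, 8 of 21 were positive (38.1%, against 10.7% of all genes) and 1 negative (4.76%, against 3.01%). Pdk1, which restrains pyruvate oxidation, fell by 0.57 in APCs (limma adjusted p = 0.0209) and had an interaction of 0.69 (SE 0.19). Cytoplasmic ribosomal proteins stood at the level of all genes, with a median of 0.05 that was −0.04 after centring on medians.

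Genes of secreted signals held several of the larger single values. Of 41 Wnt genes, 9 were positive (22%, against 10.7% of all genes) and 0 negative at an unadjusted p under 0.05, with a median of 0.12. Wnt4, a ligand, stood at 3.48, 3.61, 3.22, 3.73 and 3.57 log2 CPM in control FIPs and at 4.44, 4.30, 3.93, 4.85 and 5.44 in FIPs labelled transgenic, with no overlap, and its interaction was 1.82 (SE 0.45). Its FIP difference of 1.07 did not pass (limma adjusted p = 0.172). Dkk3, a Dickkopf-family protein, fell by 1.01 in APCs without overlap (limma adjusted p = 0.0164), and had an interaction of 1.35 (SE 0.31). The negative feedback gene Nkd1 had an interaction of 0.81 (SE 0.21) and Axin2, a standard target of the pathway, 0.61 (SE 0.20). Chrdl1, a secreted BMP antagonist, fell by 0.82 in APCs (limma adjusted p = 0.0209) and had an interaction of 1.09 (SE 0.27). Rbpj, the DNA-binding partner of Notch, fell by 0.16 in FIPs without overlap (8.00 to 8.11 in controls, 7.84 to 7.95 in libraries labelled transgenic; limma adjusted p = 0.0351) and had an interaction of −0.20 (SE 0.05).

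Matrix lists had medians near 0, and those of basement membrane and matrix glycoproteins held larger shares of negative members than all genes (3.01%). Fibrillar collagen and crosslinking genes had a median of −0.06 with 2 of 33 positive and 2 negative at an unadjusted p under 0.05, and basement membrane genes −0.06 with 3 of 23 positive (13%) and 6 negative (26.1%). Matrix glycoproteins and proteoglycans had 6 of 38 in each direction (15.8%, against 10.7% positive and 3.01% negative of all genes) and a median of −0.06 that was 0.01 after quantile normalization. Single members stood out in FIPs. Lama1, a laminin chain, stood at 2.85, 3.20, 2.80, 3.32 and 3.26 log2 CPM in control FIPs and at 4.07, 3.86, 4.16, 4.73 and 5.50 in FIPs labelled transgenic. It rose by 1.38 without overlap (limma adjusted p = 0.0366) and had an interaction of 1.77 (SE 0.40). Col11a1, a minor fibrillar collagen chain, stood at 0.90, 1.77, 0.24, 1.13 and 1.22 in control FIPs and at 2.79, 1.82, 2.22, 3.01 and 3.42 in FIPs labelled transgenic, a rise of 1.6 (limma adjusted p = 0.00759). It was at or under 0.38 in all APC libraries, so its interaction of 1.53 (SE 0.36) describes FIPs. The collagenase Mmp8 rose in FIPs by 1.14 (limma adjusted p = 0.0233) and was listed at 0 in all 10 APC libraries. Cell cycle genes had the next lowest median after the interferon list, −0.19, with 33 of 38 members negative, against 6632 of the 17435 genes tested. At an unadjusted p under 0.05, 3 were negative (7.89%, against 3.01% of all genes). The median was −0.05 without both APC libraries numbered 1.

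**Figure D5:**
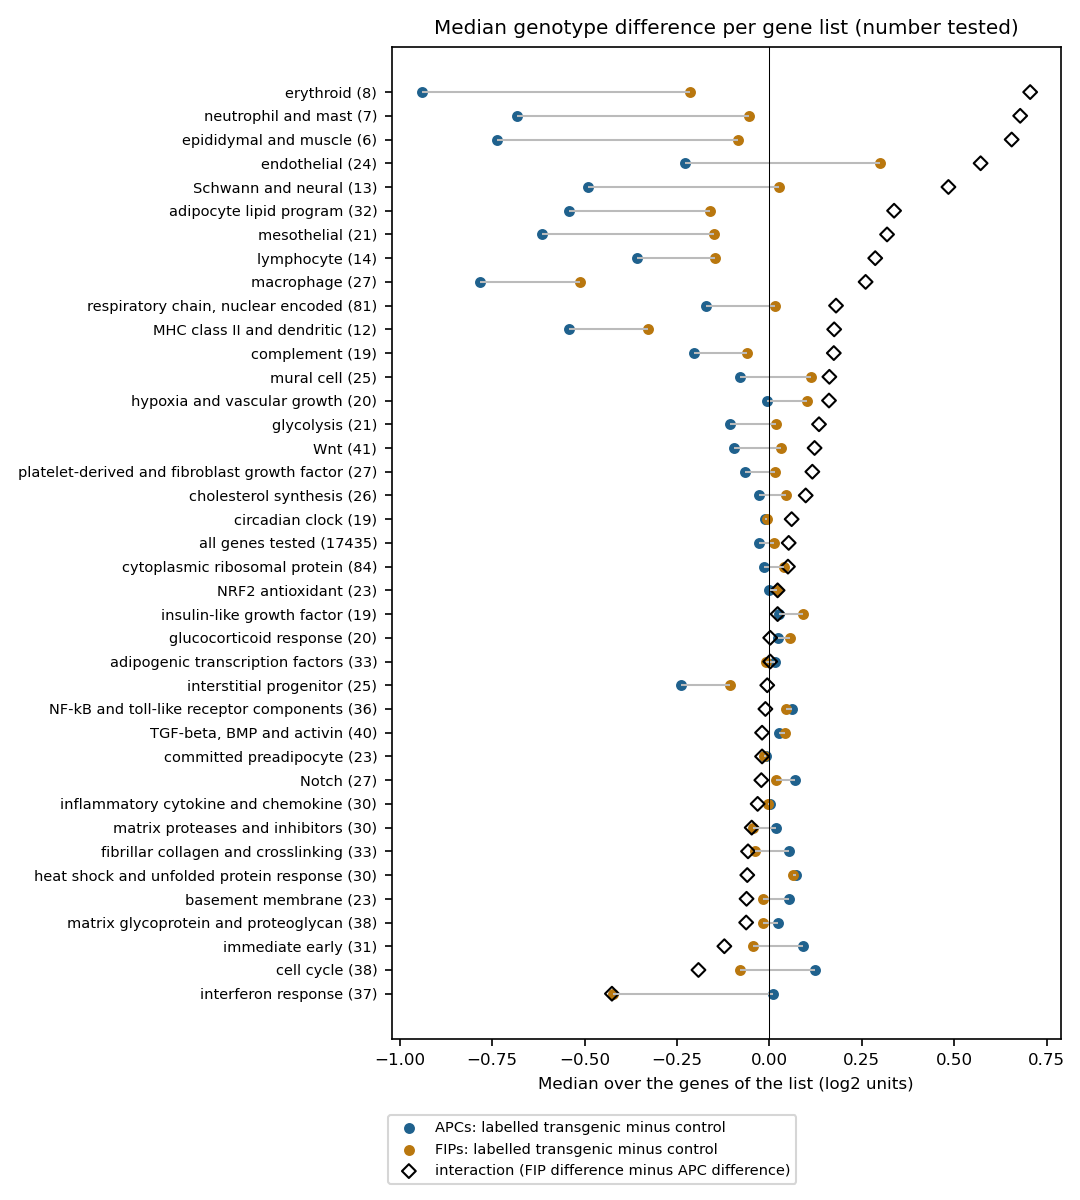
Median over each gene list, with the number of genes tested, of the labelled transgenic minus control difference in APCs and in FIPs and of the interaction (log2 units). The interferon list has the lowest median interaction (−0.43) and differs in FIPs, whereas the adipocyte lipid and erythroid lists have positive medians (0.34 and 0.71) and differ in APCs.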

How the data were processed

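RNA sequencing values came from 1 table of log2 CPM deposited by the authors, with 54304 genes in 20 libraries, given to 2 decimals and with 1 CPM or less listed as 0. Per the submitters' processing notes, reads were handled with Trim Galore 0.4.1, HISAT2 2.0.1, featureCounts 1.4.6 and DESeq2 1.6.3 on GRCm38. The notes used here name neither an annotation release nor whether counting used strand. Low values gave whole reads (within 0.0051 log2 units) for 71.8 to 78.8% of cases, too few for a count model. Depth estimated from them limits precision near 1 CPM.

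Genes above 0 in at least 5 libraries (17435) were fitted with limma 3.58.1 (R 4.3.3), with 4 group means, a variance trend, 16 residual degrees of freedom and Benjamini-Hochberg adjustment over all genes, called at 0.05. Coordinates are from GENCODE M21 (54276 genes matched). Members and the 38 lists were chosen with earlier results of these data known, and lists carry counts and medians, not tests. Genes were named by rule: Zfp423, the gate genes, the 20 smallest p, and the smallest p of each list. Other members with values were chosen after their values were seen. The procedure was tested on simulated data first. Alternatives covered the added constant, filters, scalings, variance models, blocks, covariates and each library left out.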

Additional observations from a re-analysis of the deposited data

Results flagged for a closer look

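Of 472 groups of 5 libraries examined for the named genes and the means of all 38 lists, 42 had 1 library set apart from the other 4 by a gap larger than Dixon's 95% critical value of 0.71 of the group's range. Chance flags about 1 in 20 groups. Values are in log2 CPM, with the range of the other 4 libraries after each.

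In APCs labelled transgenic, replicate 1 stood apart for Pdgfrb at 9.24 (9.45 to 9.51), Cxadr at 2.86 (2.10 to 2.21), Slc4a1 at 1.45 (0 to 0.33) and Ndufa6 at 5.07 (4.72 to 4.74). Dclk3 and Col11a1 were each at 0.38 in that library and listed at 0 in the others. The same library stood apart for 7 list means. They were committed preadipocyte at 7.65 (7.48 to 7.50), lymphocyte at 1.56 (0.681 to 0.802), mesothelial at 4.41 (3.77 to 3.91), adipocyte lipid at 7.48 (6.66 to 6.89), complement at 5.95 (5.65 to 5.73), antioxidant at 6.74 (6.43 to 6.52) and respiratory chain at 5.25 (4.99 to 5.06). In replicate 4 the ribosomal protein mean was 5.87 (5.98 to 6.02). Replicate 5 was low for Ppcs at 2.06 (2.46 to 2.61) and Gucy1a1 at 3.06 (3.86 to 3.99), and Cd3g was at 0.6 there and listed at 0 in the others. Fgf9 was at 0.21 in replicate 2 and listed at 0 in the others.

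In control APCs, replicate 4 was apart for Cilp at 6.47 (6.89 to 6.97) and Col11a1 at 0.03 (listed at 0 in the others). Replicate 5 was apart for Scd2 at 8.66 (8.27 to 8.34), Pmvk at 5.02 (4.54 to 4.63) and Rbpj at 7.22 (7.33 to 7.36), and replicate 1 for Lama1 at 3.63 (2.75 to 2.86). Of the list means, fibrillar collagen was 8.05 (8.16 to 8.18) and cell cycle 3.59 (3.94 to 4.07) in replicate 1, and immediate early was 7.64 (7.75 to 7.79) in replicate 5.

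In FIPs labelled transgenic, replicate 5 was apart for Oas3 at 3.4 (1.79 to 2.02), Ifit2 at 6.69 (5.82 to 6.0), Acta2 at 6.26 (5.88 to 5.93) and Tec at 0.61 (1.20 to 1.39), and replicate 1 for Il33 at 6.15 (5.94 to 5.98). The interferon list mean was 5.8 in replicate 5 (4.87 to 5.10). In control FIPs, replicate 1 was low for the interferon genes Oas3 at 3.18 (4.19 to 4.38), Ifit2 at 6.12 (6.59 to 6.78) and Isg15 at 4.92 (5.28 to 5.4). Replicate 3 was apart for Mmp8 at 0.24 (1.10 to 1.43) and Slc4a1 at 0.24 (listed at 0 in the others), replicate 5 for Abcc9 at 4.18 (4.68 to 4.84) and Cd3g at 0.14 (listed at 0 in the others), and replicate 2 for Ndufs8 at 5.03 (4.78 to 4.85). The matrix glycoprotein mean was 8.09 in replicate 3 (8.00 to 8.02).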

How the results depend on the processing

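The interaction called 0 genes in limma (2388 at an unadjusted p under 0.05). It also called 0 with 0.1 CPM added, with 3 other filters, with median centring or the trimmed mean shift, with robust variance, without the variance trend, and with the replicate number as a block. It called 3 genes with 1 CPM added, 1 after quantile normalization, 176 with array weights, 36 with pools as a random effect, and 2, 1 and 1 with the erythroid, macrophage and endothelial means as covariates. A replicate block of number within genotype gave 25. Same-numbered FIP and APC libraries correlated at 0.0364 to 0.333 in their deviations, 5 of 10 above 0.1, and the own number was highest for 7 of 10. All 10 were positive, a hint that pools of the same number share mice. Pairs are not stated by the labels and not all values exceeded 0.1, so the main fit took none. These values do not show that the pools are unrelated. Leaving out 1 library gave 0 to 331, and leaving out both APC libraries numbered 1, chosen after the data were seen, gave 957. The unadjusted count was 1159 and 1193 with the erythroid and endothelial covariates and 4017 without both libraries.

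The FIP genotype count (65) was 101 with the number as a block, 36 with only its 10 libraries and 9 to 125 with 1 library left out. The APC count (1396) was 0 with only its 10 libraries, 181 to 2849 with 1 library left out and 3534 without both libraries numbered 1. The Zfp423 interaction ranged from 0.26 to 0.44 with 1 library left out and was 0.438 without both. It was 0.159 and 0.130 with the erythroid and endothelial covariates and 0.233 to 0.269 under the other scalings. Of the 79 named genes, 77 kept their sign in each alternative. Pdgfrb (−0.04) was 0.0311 after quantile normalization, 0.0378 and 0.0541 with the erythroid and endothelial covariates, and −0.087 to 0.002 with 1 library left out. Ptprc (0.13) was −0.480, −0.239 and −0.789 with the erythroid, macrophage and endothelial covariates, and −0.0525 to 0.31 with 1 library left out. The cause of these changes was not tested. Pools of 2 mice, 5 per group, and the floor at 1 CPM limit what low genes can show.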

Other observations

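Among lists not described above, further transcripts of cells outside the gates had positive medians, against 0.05 for all genes. The epididymal and muscle list had a median interaction of 0.66, and 4 of 6 members, Mb, Tnnt3, Acta1 and Myh4, fell in APCs labelled transgenic (5.91% of all genes). Its summed level reached 821 CPM in control APCs and 521 in APCs of the transgenic label, and 262 and 355 in the FIP groups, with Crisp1, Defb41 and Lcn5 at 0 in all libraries. Lymphocyte genes had a median of 0.29 and MHC class II and dendritic genes 0.18. At an unadjusted p under 0.05, 1 of 14 (7.14%) and 1 of 12 (8.33%) were positive, against 10.7% of all genes. Both shares lie below that of all genes, so nothing is read from these counts. Without both APC libraries numbered 1 the medians were 0.64 and 0.41. The part of these transcripts in the interaction was not tested. Complement genes had a median interaction of 0.17. At an unadjusted p under 0.05, 3 of 19 were positive (15.8%, against 10.7% of all genes) and 0 negative. In APCs labelled transgenic 8 fell (5.91% of all genes), among them the regulators Cd55 and Cd59a. Hypoxia and vascular growth genes had a median of 0.16, with 7 of 20 positive (35%, against 10.7% of all genes) and 0 negative. Vegfa, Vegfb and the prolyl hydroxylase Egln3 fell in APCs (5.91% of all genes). Adm, which encodes the vasodilator adrenomedullin, rose there (2.1% of all genes). Schwann and neural genes had a median of 0.48, with 5 of 13 positive at an unadjusted p under 0.05 (38.5%, against 10.7% of all genes). Their summed level was 896 to 1068 CPM in control APCs and 984 to 1088 in APCs labelled transgenic.

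Immediate early genes had 27 of 31 members on the negative side, against 6632 of the 17435 genes tested, and a median of −0.12. At an unadjusted p under 0.05, 4 were negative (12.9%, against 3.01% of all genes) and 1 positive (3.23%, against 10.7%). Nr4a2 and Nr4a3, orphan nuclear receptors induced by many stimuli, rose in FIPs labelled transgenic (2 of 31, against 0.241% of all genes). Ier3, Fosl1 and Gadd45b rose in APCs (3 of 31, against 2.1% of all genes). Of 23 antioxidant genes, 5 fell in APCs, namely Gsta4, Taldo1, Me1, Pgd and Tkt (5.91% of all genes). Another 3, Gclc, Hmox1 and Txnrd1, rose there (2.1% of all genes). The median interaction of this list was 0.02. Bmp4 and Zbtb16 rose in both populations.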
